A study of Mus musculus with 8 samples.

Results

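The heat shock proteins and cytosolic chaperones described here are 37 genes, taken by symbol from the 23284 gene symbols measured by RNA sequencing in 8 libraries of mouse LSK cells (Lineage- Sca-1+ c-Kit+). LSK cells are the sorted bone marrow population that holds blood stem cells and early progenitors. All 37 symbols were found, and 36 of them reached 1 FPKM (mapped fragments per unit of transcript length and of library size) in at least 2 libraries. These were among the 11931 genes tested, and Hspb1 was not. The mice were C57BL/6 males, 12 to 13 weeks old, injected intravenously for 7 days after fasting for more than 14 hours overnight, and their marrow was taken on day 8. Glucose mice (2 libraries, letters A and B) received glucose at 2 g/kg. Mice given glucose with lipid (2 libraries, H and I) received, per the labels' shared protocol, glucose at 2 g/kg and a 20% lipid emulsion at 6 mL/kg. PBS mice (4 libraries, H, I, J and K, numbered replicates 1, 2, 3 and 4) received phosphate-buffered saline alone. All groups were fed freely by day. The titles call the libraries biological replicates without saying whether each came from 1 mouse or a pool. The p-values therefore measure the spread between these libraries. From the letters and a name tag that 4 libraries share, PBS H and I were taken as the controls of glucose with lipid and PBS J and K as those of glucose. This is an inference from names.

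Molecular chaperones bind proteins that are not yet folded, or have come unfolded, and release them in cycles driven by ATP. Hsp70 proteins take up nascent chains that J-domain (Hsp40) proteins hand to them and let go with the help of exchange factors. Hsp90 acts later, on near-native kinases and steroid receptors. The chamber formed by CCT closes around actin and tubulin and that of Hsp60 and Hsp10 works inside mitochondria. Heat shock factor 1 (Hsf1) drives many of these genes in stressed cells by binding inverted repeats of GAA. Blood stem cells are known for a low rate of protein synthesis that they keep under close control.

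Promoters (250 bases before to 50 after each annotated start) were read from RefSeq on the GRCm38.p6 build, since many of these genes are known targets of Hsf1. Entries were matched for 29 of the 37 genes. Those without one were Cct4, Dnajc2, Hsf1, Hsp90aa1, Hsp90ab1, Hspa8, Hspa9 and St13. The motif GAANNTTC, which is its own reverse complement and so was read on both strands at once, occurred in 7.86% of all 32851 promoter entries and in 14 of the 39 entries of these genes. They belong to 12 genes: Bag3, Cct2, Chordc1, Dnaja1, Dnajb6, Fkbp4, Hspa1a, Hspa1b, Hspb1, Hspd1, Hspe1 and Hsph1. A motif with an additional unit, namely GAANNTTC followed by NNGAA or preceded by TTCNN, read on both strands, occurred in 0.603% of all entries and in 7 of the 39. These belong to Chordc1, Dnajb6, Hspd1, Hspe1 and Hsph1. The 7 entries are not 7 separate sites. Hspd1 and Hspe1 share 1 site, and the overlapping entries of Dnajb6, and those of Hsph1, hold the same site. The genes with the longer motif are shown first, then 3 with the shorter motif only, each as at most 30 bases on the gene's own strand with the motif bases in capitals.
Hspd1: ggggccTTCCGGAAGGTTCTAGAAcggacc
Hspe1: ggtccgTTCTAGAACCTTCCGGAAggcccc
Chordc1: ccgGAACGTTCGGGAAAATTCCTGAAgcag
Dnajb6: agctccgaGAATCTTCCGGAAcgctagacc
Hsph1: gctgcagaTTCTGGAAAGTTCt
Hspa1a: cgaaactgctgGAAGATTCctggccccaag
Hspa1b: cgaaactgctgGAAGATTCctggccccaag
Fkbp4: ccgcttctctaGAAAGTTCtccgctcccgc
The Hspd1 and Hspe1 lines are opposite strands of 1 site at chr1:55088053-55088082, with Hspd1 on the minus and Hspe1 on the plus strand. The other windows are chr9:18292260-18292289 (plus) for Chordc1, chr5:29735844-29735873 (plus) for Dnajb6, chr5:149636287-149636308 (minus) for Hsph1, chr17:34972242-34972271 (minus) for Hspa1a, chr17:34959324-34959353 (minus) for Hspa1b and chr6:128438789-128438818 (minus) for Fkbp4. The site began 89 bases before the start of Hspe1, 144 before that of Hspd1, 4 before that of Chordc1, 46 or 127 before the 2 annotated starts of Dnajb6, 104 before those of Hspa1a and Hspa1b and 151 before that of Fkbp4. In Hsph1 it began 15 or 36 bases after its 2 annotated starts. The distance for Hspd1 is from the start that lies before Hspe1, and the promoter of its other start held neither motif. The windows of Hspa1a and Hspa1b are the same 30 bases. A match of letters is a description of the promoter and not a measured binding site.

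Hspd1 and Hspe1, which encode the 2 parts of the mitochondrial chaperonin, lie head to head on chromosome 1. RefSeq gives Hspd1 2 starts, and 1 of them lies beyond the start of Hspe1, so that transcripts from it overlap the other gene. The 215 bases between the start of Hspe1 and the other Hspd1 start (chr1:55087933-55088147, plus strand) are shown because they lie before both starts.
Hspd1 to Hspe1: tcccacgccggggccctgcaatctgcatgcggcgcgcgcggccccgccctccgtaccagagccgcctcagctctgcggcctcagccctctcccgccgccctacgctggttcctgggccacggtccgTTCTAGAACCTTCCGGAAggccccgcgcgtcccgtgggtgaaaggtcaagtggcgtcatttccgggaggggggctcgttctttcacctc
The capitals mark the same run of GAA and TTC units as above.

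The libraries held 645780 to 778895 FPKM in all and 11186 to 11771 genes at 1 FPKM or more. Depth is known only relative to glucose replicate 1, from the steps between low values, and ran from 0.786 to 1.14 times that library. The LSK label was checked against 10 stem and progenitor genes, and all were present. Kit lay at 164 to 198 FPKM and Ly6a (the Sca-1 gene) at 295 to 424 FPKM. Glucose with lipid replicate 1 stood apart. The 10 neutrophil genes summed to 65125 FPKM there and to 137 to 441 FPKM in the other 7 libraries. All 10 were at 146 FPKM or more there, while Mmp8 or Retnlg was listed at 0 in 3 of the others. The 7 monocyte and macrophage genes summed to 5183 FPKM against at most 510.2. The 9 red cell genes summed to 2971 and 1710 FPKM in the glucose with lipid libraries and to 322 and 357 FPKM in the glucose libraries, against 807 and 786.5 in PBS H and I and 570.4 and 295 in PBS J and K. The 14 immediate early genes, which answer to handling and dissociation as well as to growth signals, summed to 3587 to 4192 FPKM in the 4 treated libraries and to 1627 to 1981 FPKM in the 4 PBS libraries. The part of these transcripts in the chaperone values was not tested. In bulk samples fewer cells of a type and less RNA per cell cannot be told apart.

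Across the chaperones as a whole, 2 PBS libraries were high and the other 6 lay closer together. Their FPKM summed to 6514 and 6333 in the glucose libraries, 6168 and 5828 in the glucose with lipid libraries, 6545 and 6697 in PBS H and I, and 9629 and 7636 in PBS J and K. PBS J held the highest value of 30 of the 36 tested genes, where it was the highest library for 21.4% of all genes tested. PBS J and K both exceeded all the other 6 libraries for 24 of the 36, against 12% of all genes tested. The 12 genes outside this pattern were the Hsp110 protein gene Hspa4l, 7 of the 8 J-protein genes (all but Dnaja3), and St13, Ptges3, Chordc1 and Cct2. The 24 include Hspa1a, which reached 1 FPKM only in glucose and PBS J and K libraries and so was tested through them. Without PBS J, PBS K alone exceeded the other 6 libraries for 25 of the 36, against 18.7% of all genes tested. With each library scaled to its sum without small RNA genes, the count for both was 19 of the 36, against 7.76%. The rule that PBS J and K both exceed the other 6 libraries was itself chosen with these values known, as were these settings. Its counts describe the pattern and are not a planned test.

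**Figure D1:**
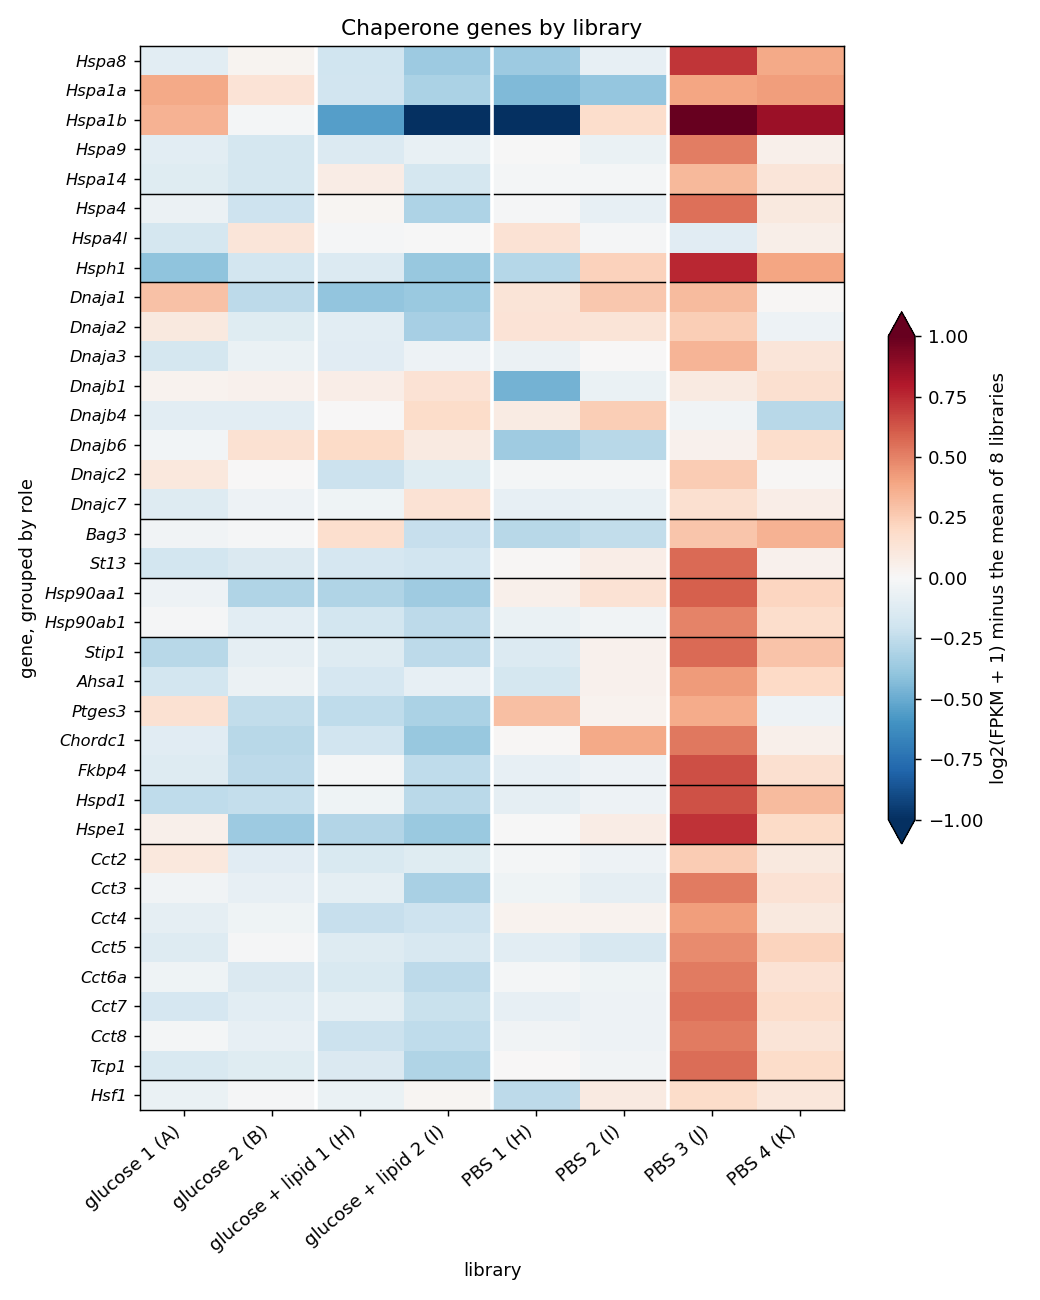
Each row is 1 of the 36 tested chaperone genes, grouped by family, and each column 1 library, with colour showing log2(FPKM + 1) minus the gene's mean over the 8 libraries. The PBS J column is the highest for 30 of the 36 genes, the exceptions being Hspa1a, Hspa4l, Dnajb1, Dnajb4, Dnajb6 and Bag3.

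Ordered by mean FPKM, Hsp90ab1 came first with an average of 1275 FPKM over the 8 libraries, followed by the CCT subunit genes Cct5, Cct6a and Cct3 at 569, 505 and 454 FPKM. The stress-inducible genes Hspa1a, Hspa1b and Hspb1 were the lowest. FPKM is scaled by transcript length, so these levels can be set against each other, but only roughly. The annotation behind the values was not given, and some genes may share reads with near copies or pseudogenes.

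The Hsp70 group was dominated by Hspa8, the constitutive Hsp70 of the cytosol, which stood at 263 and 289 FPKM in the glucose libraries, 246 and 219.7 in the glucose with lipid libraries, 220.4 and 268 in PBS H and I, and 465 and 369 in PBS J and K. Both PBS J and K were above all the other 6 libraries, which overlapped one another. Glucose relative to PBS J and K gave a log2 fold change of -0.58 ± 0.15 (standard error; all fold changes are on the log2(FPKM + 1) scale and 2 libraries stand on each side unless stated). The limma adjusted p was 0.205 over all genes tested. Glucose with lipid relative to PBS H and I gave -0.063 ± 0.15 (adjusted p = 0.907), and PBS H and I relative to PBS J and K gave -0.77 ± 0.15 (adjusted p = 0.105).

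Hspa1a and Hspa1b, the heat-inducible Hsp70 genes, were near the lower limit of the data. Hspa1b stood at 2.85 and 1.99 FPKM with glucose, 1.07 and 0.491 with glucose and lipid, 0.490 and 2.43 in PBS H and I, and 6.13 and 4.47 in PBS J and K. PBS J and K were again the highest libraries, while PBS H and glucose with lipid replicate 2 had nearly the same lowest value. Its log2 difference for PBS H and I relative to PBS J and K was -1.47 ± 0.41, the most negative of the 36 in that comparison. It had an adjusted p of 0.164 in limma. Hspa1a stood at 1.55 and 1.16 FPKM with glucose, 0.716 and 0.575 with glucose and lipid, 0.438 and 0.499 in PBS H and I, and 1.57 and 1.61 in PBS J and K. The glucose libraries thus lay nearer PBS J and K, and the glucose with lipid libraries nearer PBS H and I. Only glucose and PBS J and K libraries reached 1 FPKM of Hspa1a, so it passed the filter through them. The coding sequences of Hspa1a and Hspa1b were identical at 1918 bases (99.43%). How reads were split between them is uncertain.

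Hspa9, the mitochondrial Hsp70 that pulls precursor proteins into the matrix, stood at 190.0 and 181 FPKM with glucose, 186 and 194 with glucose and lipid, 204 and 196 in PBS H and I, and 293 and 212 in PBS J and K. The 4 treated libraries lay below all 4 PBS libraries, with PBS J far above the other 3 PBS libraries. Its log2 differences were -0.42 ± 0.14 for glucose relative to PBS J and K (adjusted p = 0.263) and -0.070 ± 0.14 for glucose with lipid relative to PBS H and I (adjusted p = 0.896). Hspa14, an Hsp70 that works at the ribosome, stood at 98.4 and 94.6 FPKM with glucose, 113 and 94.9 with glucose and lipid, 106 and 106 in PBS H and I, and 134 and 116 in PBS J and K, with overlap between the glucose with lipid and PBS H and I libraries.

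The 3 Hsp110 genes encode exchange factors that open Hsp70 for its next round. Hsph1 stood at 32.8 and 38.4 FPKM in the glucose libraries, 39.6 and 33.4 in the glucose with lipid libraries, 35.7 and 51.3 in PBS H and I, and 74.5 and 57.8 in PBS J and K. Both PBS J and K were above the rest, and PBS I was the highest of the other 6 libraries. The glucose difference, -0.87 ± 0.20, had an adjusted p of 0.204 in limma, and among the 36 genes only Hspa1b was lower (-0.88). The same quantity for glucose with lipid relative to PBS H and I was -0.23 ± 0.20 (adjusted p = 0.704). Hspa4 stood at 72.7 and 65.7 FPKM with glucose, 76.7 and 61.1 with glucose and lipid, 75.2 and 71.7 in PBS H and I, and 112 and 81.1 in PBS J and K, with glucose with lipid replicate 1 above both PBS H and I. Hspa4l, its close relative, did not share the pattern. It stood at 15.7 and 19.5 FPKM with glucose, 17.7 and 17.8 with glucose and lipid, 19.9 and 17.7 in PBS H and I, and 16.4 and 18.7 in PBS J and K. PBS J was below all but 1 of the other libraries.

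The J-protein (Hsp40) genes, whose products bring substrates to Hsp70 and set off its ATP hydrolysis, were the most mixed group. Dnaja1 and Dnaja2, general partners of Hspa8 in the cytosol, had their lowest group means with glucose and lipid. Dnaja1 stood at 34.4 and 23.1 FPKM in the glucose libraries, 21.0 and 21.4 in the glucose with lipid libraries, 30.6 and 33.9 in PBS H and I, and 35.0 and 28.1 in PBS J and K. Both glucose with lipid libraries were below all the other 6, and glucose replicate 1 lay among the PBS libraries. Its difference between glucose with lipid and PBS H and I was -0.58 ± 0.20 (adjusted p = 0.333 in limma), the most negative of the 36 in that comparison. Dnaja2 stood at 169 and 145 FPKM with glucose, 146 and 125 with glucose and lipid, 173 and 172 in PBS H and I, and 188 and 152 in PBS J and K. Glucose replicate 2 lay between the glucose with lipid libraries, which were both below PBS H and I. It differed by -0.35 ± 0.14 in the same comparison (adjusted p = 0.380).

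Dnajb1, the J protein that stress induces together with Hsp70, stood at 111 and 112 FPKM in the glucose libraries, 114 and 119.9 in the glucose with lipid libraries, 77.8 and 103 in PBS H and I, and 115 and 121 in PBS J and K. PBS H was the lowest library by a wide margin. PBS J fell among the treated libraries and PBS K just above them. Glucose with lipid lay 0.38 ± 0.13 above PBS H and I on the log2 scale (adjusted p = 0.350 in limma), while glucose lay at -0.085 ± 0.13 relative to PBS J and K (adjusted p = 0.810). Dnajb6, a J protein that holds back aggregation, stood at 10.2 and 11.7 FPKM with glucose, 12.0 and 11.2 with glucose and lipid, 7.95 and 8.42 in PBS H and I, and 10.8 and 11.9 in PBS J and K. PBS H and I were the lowest 2 libraries, below all 4 treated ones, while PBS J and K fell among the treated ones. Its glucose with lipid difference was 0.46 ± 0.15 (adjusted p = 0.326).

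Dnajb4, a close relative of Dnajb1, stood at 12.5 and 12.5 FPKM with glucose, 13.6 and 15.5 with glucose and lipid, 14.4 and 16.2 in PBS H and I, and 13.2 and 11.0 in PBS J and K. It was the 1 gene of the 36 for which both PBS H and I exceeded both PBS J and K. Dnaja3, a mitochondrial J protein, stood at 63.3 and 68.4 FPKM with glucose, 66.1 and 69.4 with glucose and lipid, 68.6 and 72.0 in PBS H and I, and 91.0 and 78.1 in PBS J and K, with PBS J and K highest. Its glucose difference of -0.35 ± 0.11 (adjusted p = 0.245 in limma) was the most negative of the J-protein genes. Dnajc2, which works with Hspa14 at the ribosome, stood at 63.3 and 58.9 FPKM with glucose, 50.4 and 53.9 with glucose and lipid, 58.0 and 57.7 in PBS H and I, and 70.1 and 59.2 in PBS J and K. Dnajc7, whose product binds both Hsp70 and Hsp90, stood at 84.2 and 89.0 FPKM with glucose, 89.6 and 102 with glucose and lipid, 87.1 and 87.6 in PBS H and I, and 103 and 96.8 in PBS J and K. Adjusted p-values of these 4 genes were 0.245 or higher for glucose, glucose with lipid and PBS against PBS in limma.

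Beside them, St13 (Hip), which steadies Hsp70 in its substrate-bound state, stood at 94.9 and 97.7 FPKM with glucose, 95.8 and 94.4 with glucose and lipid, 109 and 113 in PBS H and I, and 159.8 and 111 in PBS J and K. All 4 treated libraries were below all 4 PBS libraries, with a log2 difference of -0.34 ± 0.12 over both sets (adjusted p = 0.350, limma, 4 against 4). Bag3, an exchange factor that hands Hsp70 clients to autophagy, stood at 5.60 and 5.71 FPKM with glucose, 6.61 and 4.77 with glucose and lipid, 4.58 and 4.70 in PBS H and I, and 7.19 and 7.57 in PBS J and K, with PBS J and K highest and PBS H and I lowest.

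Hsp90 is encoded by a constitutive gene, Hsp90ab1, and a more inducible one, Hsp90aa1. Hsp90ab1 stood at 1248 and 1169 FPKM in the glucose libraries, 1107 and 1053 in the glucose with lipid libraries, 1201 and 1227 in PBS H and I, and 1778 and 1420.1 in PBS J and K. PBS J and K were the highest 2 libraries, and PBS H and I lay among the glucose libraries. Hsp90aa1 stood at 89.2 and 74.8 FPKM in the glucose libraries, 74.6 and 72.0 in the glucose with lipid libraries, 95.5 and 102 in PBS H and I, and 140.3 and 107 in PBS J and K. Here all 4 treated libraries were below all 4 PBS libraries. Hsp90aa1 had the smallest adjusted p of the 36 when all treated were set against all PBS libraries, at -0.50 ± 0.11 and 0.157 (limma, 4 against 4 with the control set as a block). Within the sets it was -0.58 ± 0.15 for glucose (adjusted p = 0.208) and -0.43 ± 0.15 for glucose with lipid (adjusted p = 0.339), so it did not pass the threshold in either.

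Among Hsp90's partners, Stip1 (Hop), which joins Hsp70 to Hsp90, stood at 156 and 178 FPKM in the glucose libraries, 173 and 158 in the glucose with lipid libraries, 172 and 195 in PBS H and I, and 281 and 231 in PBS J and K. PBS J and K were highest, and glucose lay at -0.61 ± 0.13 relative to them (adjusted p = 0.176, limma). Fkbp4, an immunophilin of steroid receptor complexes, stood at 233 and 213 FPKM with glucose, 252 and 215 with glucose and lipid, 241 and 246 in PBS H and I, and 400.4 and 285 in PBS J and K. Ahsa1, which speeds Hsp90's ATPase, stood at 181 and 198 FPKM with glucose, 182 and 194 with glucose and lipid, 182 and 212 in PBS H and I, and 277 and 236 in PBS J and K. In both genes PBS J and K were the highest 2 libraries, and the other 6 overlapped. Their glucose differences were -0.60 ± 0.16 for Fkbp4 (adjusted p = 0.225) and -0.43 ± 0.12 for Ahsa1 (adjusted p = 0.227).

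Chordc1 and Ptges3 did not follow Stip1. Chordc1 (Morgana), a cofactor of Hsp90 that is itself induced by heat, stood at 75.5 and 67.6 FPKM in the glucose libraries, 71.5 and 62.7 in the glucose with lipid libraries, 82.7 and 107 in PBS H and I, and 118 and 84.8 in PBS J and K. All 4 treated libraries were below all 4 PBS libraries, and PBS I was higher than PBS K. The differences were -0.48 ± 0.19 for glucose and -0.48 ± 0.19 for glucose with lipid, with adjusted p-values of 0.298 and 0.379 in limma. Ptges3 (p23), which holds Hsp90 closed on its client, stood at 121 and 91.6 FPKM with glucose, 91.3 and 87.3 with glucose and lipid, 134 and 112 in PBS H and I, and 141 and 105 in PBS J and K. Glucose replicate 1 lay above PBS I and PBS K, so treated and PBS libraries overlapped, and the glucose with lipid difference was -0.45 ± 0.18 (adjusted p = 0.399).

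The mitochondrial chaperonin pair whose shared promoter is printed above was higher in PBS J and K than in all the other 6 libraries. Hspd1 (Hsp60) stood at 79.1 and 79.8 FPKM in the glucose libraries, 91.8 and 78.5 in the glucose with lipid libraries, 88.7 and 91.4 in PBS H and I, and 147 and 118 in PBS J and K. Both PBS J and K were above all the rest, and the other 6 libraries lay within 78.5 to 91.8 FPKM. Its glucose difference, -0.72 ± 0.13, had the smallest adjusted p of the 36, 0.138 in limma. Glucose with lipid relative to PBS H and I gave -0.084 ± 0.13 (adjusted p = 0.851), and the test of the difference between the effects gave 0.64 ± 0.18 (adjusted p = 0.310). PBS H and I relative to PBS J and K gave -0.55 ± 0.13 (adjusted p = 0.139).

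Hspe1 (Hsp10), the lid of that chamber, stood at 139.6 and 105 FPKM in the glucose libraries, 110.1 and 104 in the glucose with lipid libraries, 134 and 143 in PBS H and I, and 223 and 154 in PBS J and K. Glucose replicate 1 lay above both glucose with lipid libraries and between PBS H and PBS I. The glucose difference was -0.61 ± 0.19 (adjusted p = 0.245, limma) and the glucose with lipid difference -0.37 ± 0.19 (adjusted p = 0.489). The annotation holds 5 processed pseudogenes named for Hspd1 and 6 for Hspe1, and 1 each for Cct3, Dnaja1, Hspa9, Ptges3 and Tcp1, and reads may have been shared with them.

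The 8 subunits of CCT form a ring in which each occurs once, and their genes kept a nearly fixed order of FPKM. Their sum was 2812 and 2788 in the glucose libraries, 2666 and 2508 in the glucose with lipid libraries, 2874 and 2821 in PBS H and I, and 4164 and 3295 in PBS J and K. In every library Cct5 was first, followed by Cct6a, Cct3, Cct8 and Cct7, with Cct4 and Tcp1 sharing the next ranks and Cct2 last. Cct5 made up 17.8% to 20.04% of the sum and Cct2 5.15% to 6.85%.

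Cct5 stood at 515 and 557 FPKM in the glucose libraries, 514 and 502 in the glucose with lipid libraries, 523 and 503 in PBS H and I, and 783 and 657 in PBS J and K. PBS J and K were the highest 2 libraries and the other 6 overlapped. Its differences were -0.42 ± 0.11 for glucose (adjusted p = 0.205), -0.014 ± 0.11 for glucose with lipid (adjusted p = 0.977) and -0.48 ± 0.11 for PBS H and I relative to PBS J and K (adjusted p = 0.129, limma). The 6 subunits besides Cct5 and Cct2 lay between -0.33 and -0.51 for glucose and between -0.096 and -0.25 for glucose with lipid. Cct2 stood at 193 and 165 FPKM with glucose, 161 and 165 with glucose and lipid, 177 and 173 in PBS H and I, and 214 and 191 in PBS J and K, with glucose replicate 1 level with PBS K, and its glucose difference was -0.18 ± 0.11 (adjusted p = 0.465).

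In Cct4, Cct7 and Tcp1 all 4 treated libraries lay below all 4 PBS libraries. Cct4 stood at 254 and 263 FPKM with glucose, 231 and 235 with glucose and lipid, 278 and 277 in PBS H and I, and 362 and 289.8 in PBS J and K. Tcp1, the founding subunit, stood at 224 and 229.7 FPKM with glucose, 226 and 202 with glucose and lipid, 250.5 and 243 in PBS H and I, and 368 and 284 in PBS J and K. Cct7 stood at 293 and 306 FPKM with glucose, 306 and 281 with glucose and lipid, 310.0 and 317 in PBS H and I, and 481 and 372 in PBS J and K. Over both sets their differences were -0.29 ± 0.084, -0.30 ± 0.11 and -0.36 ± 0.11, with adjusted p-values of 0.295 for Cct4, 0.391 for Cct7 and 0.305 for Tcp1 (limma, 4 against 4).

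**Figure D2:**
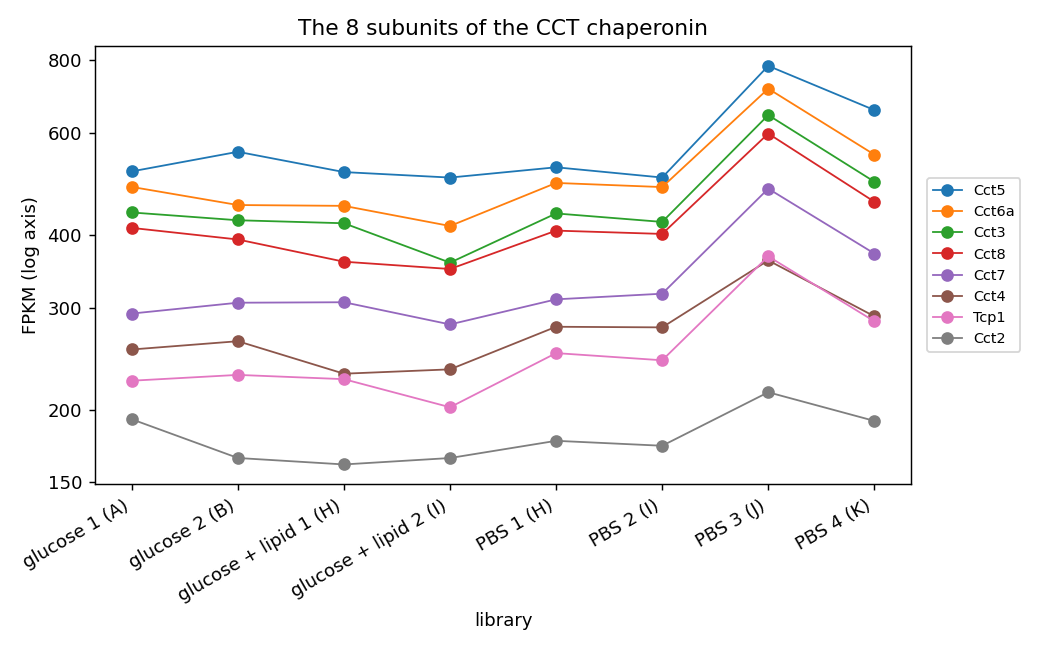
FPKM of the 8 CCT subunit genes in each of the 8 libraries. The order of the subunits is nearly the same in every library, and PBS J and K lie above the other 6 for all but Cct2.

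Hsf1, the factor whose repeat was searched above, stood at 52.7 and 54.8 FPKM in the glucose libraries, 52.7 and 55.9 in the glucose with lipid libraries, 45.8 and 58.8 in PBS H and I, and 62.9 and 59.9 in PBS J and K. PBS H was the lowest library and PBS J the highest, and treated and PBS libraries overlapped. It had adjusted p-values of 0.545 for glucose and 0.896 for glucose with lipid (limma). Hspb1, a small heat shock protein that keeps unfolded proteins soluble, was listed at 0 in 5 of the 8 libraries and at 0.215 FPKM or less in the others, and was not tested.

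The question of the design is what glucose, alone or with lipid, does to LSK cells relative to PBS. For glucose relative to PBS J and K, 35 of the 36 tested chaperones lay below 0, where 50% of all genes tested lay below and 49.9% above, with a median log2 difference of -0.39 against -0.00014 for all 11931 genes. None passed an adjusted p of 0.05 (limma, Benjamini-Hochberg), where 0.0922% of all genes passed upward and 0.00838% downward. At an unadjusted p under 0.05, 22 of the 36 were lower (61.1%, against 8.44% of all genes) and 0 were higher (against 6.41%). Dnajb4 was the 1 gene above 0, at 0.052 ± 0.15. For 28 of the 36, both glucose libraries were below both PBS J and K, as for 24.8% of all genes.

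This difference depended on which PBS libraries stood as controls. Relative to PBS H and I, the median of the glucose libraries was -0.090, from -0.39 to 0.67, with 25 of the 36 below 0 (against 50.5% of all genes). None was lower at an unadjusted p under 0.05 (3.55% of all genes), 2 (Hspa1a and Dnajb6) were higher (3.78%), and the smallest adjusted p was 0.655. Hspa1a, near the lower limit of the data, reached 1 FPKM only in glucose and PBS J and K libraries and passed the filter through them. Both glucose libraries were below both PBS H and I for 13 of the 36 (20.5% of all genes) and above them for 5 (20.9%), namely Hspa1a, Dnajb1, Dnajb6, Dnajc2 and Bag3. Without PBS J, the glucose median relative to PBS K was -0.23, with 10 of the 36 lower at an unadjusted p under 0.05 (against 3.78% of all genes). Without PBS K it was -0.55, with 22 lower (against 10%).

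For glucose with lipid relative to PBS H and I, 30 of the 36 lay below 0 and 6 above (48.2% and 51.7% of all genes), with a median of -0.10 against 0.011 for all genes. None passed the adjusted threshold, where 0.0587% of all genes passed upward and 0.0168% downward. At an unadjusted p under 0.05, Dnaja1, Dnaja2, Hsp90aa1, Ptges3 and Chordc1 were lower (5 of 36, 13.9%, against 5.93% of all genes), and Dnajb1 and Dnajb6 were higher (2 of 36, 5.56%, against 5.87%). Both glucose with lipid libraries were below both PBS H and I for 17 of the 36 (21.8% of all genes) and above them for 5 (22.2%): Hspa1a, Dnajb1, Dnajb6, Dnajc7 and Bag3. Hspa1a was below 1 FPKM in all these libraries and passed the filter only through glucose and PBS J and K. Without glucose with lipid replicate 1, which held the neutrophil transcripts, the median was -0.19, with 3 of the 36 lower at an unadjusted p under 0.05 (against 5.72% of all genes). Relative to PBS J and K in place of H and I, the median was -0.49. Of the 36, 28 were lower at an unadjusted p under 0.05 (against 9.08% of all genes), and the smallest adjusted p was 0.0907. Hspa1a was among the 28, with the same limit of the filter.

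**Figure D3:**
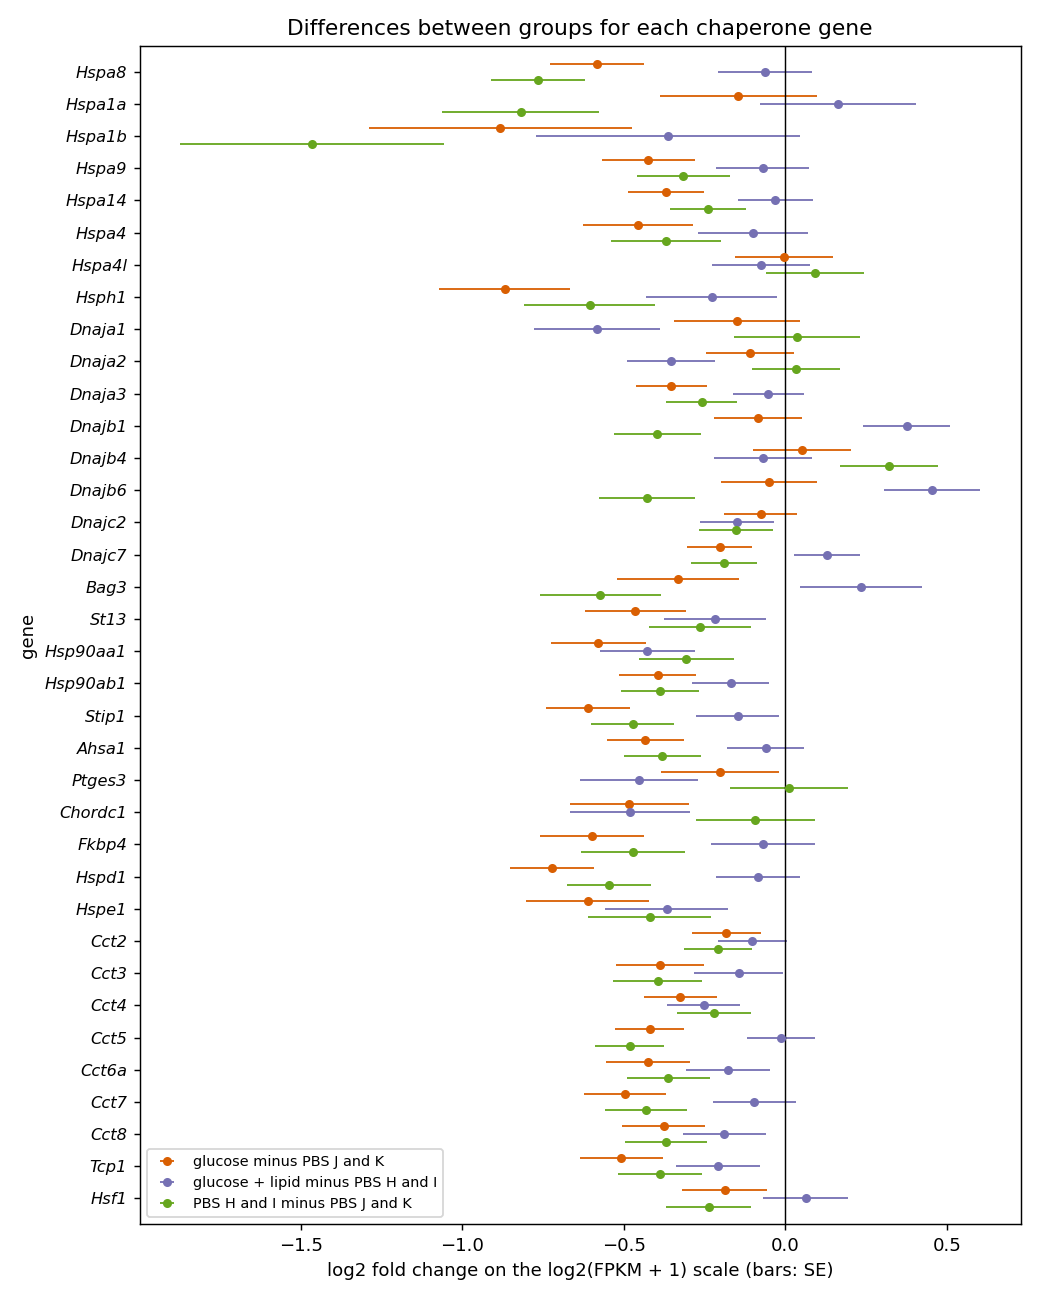
Log2 fold change of each of the 36 tested genes with its standard error, for glucose relative to PBS J and K, glucose with lipid relative to PBS H and I, and PBS H and I relative to PBS J and K. The glucose values lie below 0 for 35 genes, the glucose with lipid values for 30, and the PBS against PBS values for 31.

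The PBS libraries also differed from each other. PBS H and I lay below PBS J and K for 31 of the 36 and above for 5 (49.9% and 50.1% of all genes), with a median of -0.37 against 0.0004 for all genes. Of the 36, 19 were lower at an unadjusted p under 0.05 (52.8%, against 9.72% of all genes), 0 were higher (7.53% of all genes), and none passed the adjusted threshold, which 0.0419% of all genes passed upward and 0.00838% downward. Both PBS H and I were below both PBS J and K for 29 of the 36 (25.3% of all genes) and above them for Dnajb4 alone (24.4%). The 31, the 19 and the 29 all include Hspa1a. It reached 1 FPKM only in glucose and PBS J and K libraries and passed the filter through them. Without PBS J the median was -0.17, with 9 of the 36 lower at an unadjusted p under 0.05 (against 5.67% of all genes). Without PBS K it was -0.53, with 23 lower (against 10.1%). Red cell transcripts, whose sums are given above, also differed between these libraries. All 9 of their genes lay above 0, and 2 passed the adjusted threshold in limma (smallest adjusted p = 0.0173). Their part in the chaperone values was not tested. Glucose and PBS H and I were both set relative to PBS J and K here and so share those libraries.

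When the glucose effect was subtracted from the glucose with lipid effect, the median was 0.30, with 30 of the 36 above 0 and 6 below (53.3% and 46.7% of all genes). Hspa8, Dnajb1, Dnajb6, Stip1, Fkbp4, Hspd1 and Cct5 were higher at an unadjusted p under 0.05 (7 of 36, 19.4%, against 6.03% of all genes), 0 were lower (6.18% of all genes), and none passed the adjusted threshold, which 0.00838% of all genes passed in each direction. The median was 0.13 without PBS J, with 1 of the 36 higher at an unadjusted p under 0.05 (against 4.16% of all genes), and 0.44 without PBS K, with 18 higher (against 7.44%).

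With all 4 treated libraries set against all 4 PBS libraries and the control set as a block, 33 of the 36 lay below 0 and 3 above (51.3% and 48.7% of all genes), with a median of -0.28 against -0.007 for all genes. At an unadjusted p under 0.05, 19 were lower (52.8%, against 5.22% of all genes), 0 were higher (6.18%), and none passed the adjusted threshold, which 0.268% of all genes passed upward and 0% downward. In 7 of the 36, all treated libraries were below all PBS libraries (2.84% of all genes): Hspa9, St13, Hsp90aa1, Chordc1, Cct4, Cct7 and Tcp1. None had all treated libraries above (3.55% of all genes). The median was -0.18 without PBS J, with 12 of the 36 lower at an unadjusted p under 0.05 (against 3.21% of all genes). In that same comparison the 14 immediate early genes were all above 0, with a median of 0.86. Of them, 8 passed the adjusted threshold upward (smallest adjusted p = 0.00146 in limma). The part of the immediate early genes in the chaperone values was not tested.

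Other chaperone groups were set beside these genes as described lists. Each library's median deviation from gene means, on the log2 scale, was 0.49 in PBS J and 0.14 in PBS K for the 36 chaperones. It was 0.46 and 0.16 for 14 endoplasmic reticulum chaperones, 0.29 and 0.13 for 31 proteasome subunits, 0.25 and 0.19 for 8 other mitochondrial chaperones and proteases, 0.20 and 0.046 for 35 other cytosolic chaperones, and 0.055 and 0.053 for 7 prefoldin and related genes. All 31 proteasome genes lay below 0 for glucose relative to PBS J and K, with a median of -0.28 and 19 lower at an unadjusted p under 0.05, where 50% of all genes lay below 0 and 8.44% were lower. The endoplasmic reticulum genes had a median of -0.35, with 13 of 14 below 0 and 7 lower, and the mitochondrial genes -0.23, with 8 of 8 below 0 and 2 lower. The other cytosolic chaperones had a median of -0.16 (24 of 35 below 0, 10 lower) and prefoldin 0.028 (3 of 7 below 0, 2 lower). For PBS H and I relative to PBS J and K the median was -0.44 for the endoplasmic reticulum (12 of 14 below 0, 9 lower) and -0.30 for the proteasome (30 of 31, 19 lower), where 49.9% of all genes lay below 0 and 9.72% were lower. It was -0.25 for the mitochondrial genes (8 of 8, 4 lower), -0.10 for the other cytosolic chaperones (24 of 35, 11 lower) and -0.057 for prefoldin (4 of 7, 2 lower). For glucose with lipid relative to PBS H and I the medians of all 5 lists lay between -0.047 and 0.020, and no gene of the lists passed the adjusted threshold in either comparison.

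**Figure D4:**
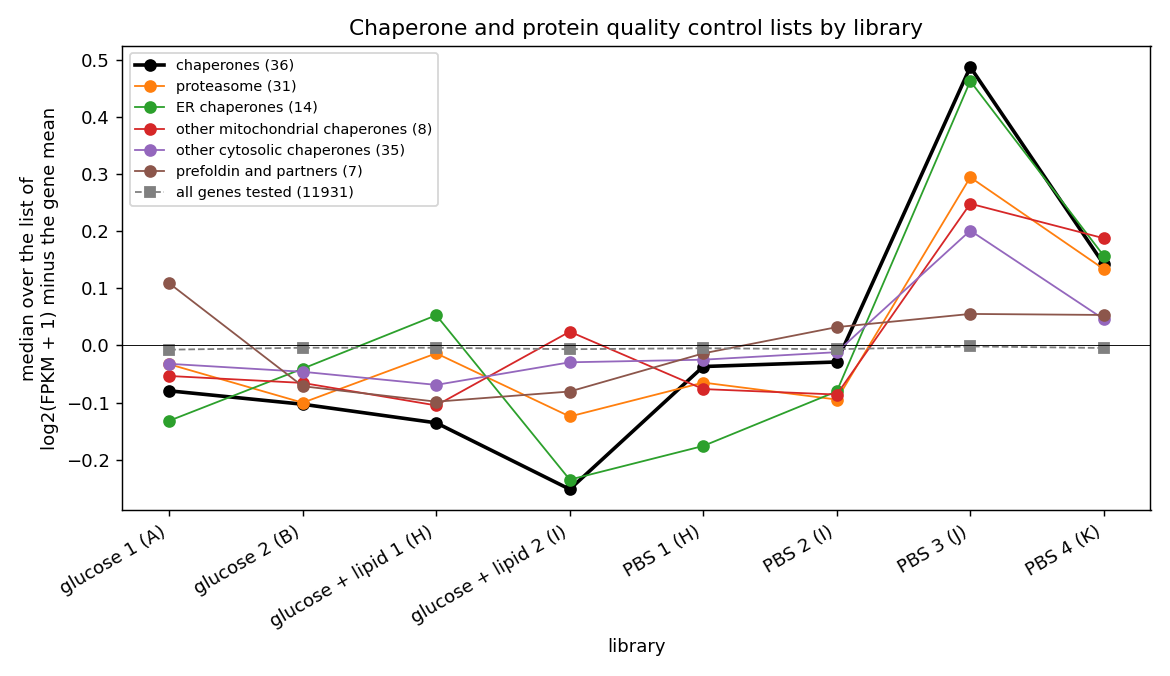
Median deviation from gene means (log2 scale) in each library for the chaperones and the other lists of protein quality genes. The chaperone and endoplasmic reticulum medians are the highest in PBS J, at 0.49 and 0.46.

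The genes named next come from those of each list with the smallest unadjusted p in limma. The p was from the glucose, glucose with lipid or PBS against PBS comparison. They were thus picked by their differences and do not stand for their lists. Of the endoplasmic reticulum genes, Sdf2l1, a partner of the chaperone BiP, stood at 61.9 and 76.1 FPKM with glucose, 107 and 67.4 with glucose and lipid, 67.7 and 73.9 in PBS H and I, and 165 and 133 in PBS J and K, with PBS J and K highest. Hspa5, which encodes BiP, the Hsp70 of that compartment, stood at 609 and 675 FPKM with glucose, 727 and 614 with glucose and lipid, 369.8 and 491 in PBS H and I, and 745 and 665 in PBS J and K. PBS H and I were the lowest 2 libraries and the treated ones overlapped with PBS J and K. Of the proteasome, Psmd13 stood at 85.1 and 81.2 FPKM with glucose, 92.6 and 87.9 with glucose and lipid, 99.4 and 107 in PBS H and I, and 129 and 107 in PBS J and K. Its glucose difference was -0.50 ± 0.11 (adjusted p = 0.204, limma). Nudc, a cochaperone of Hsp90, stood at 126 and 123 FPKM with glucose, 136 and 133 with glucose and lipid, 138 and 135 in PBS H and I, and 199.8 and 165 in PBS J and K, with PBS J and K highest. The prefoldin subunit Vbp1 stood at 262 and 146 FPKM with glucose, 146 and 147 with glucose and lipid, 278 and 294 in PBS H and I, and 201 and 144 in PBS J and K, with glucose replicate 1 and PBS H and I high, PBS J between, and the other 4 libraries lower.

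Ratios within a library do not depend on how that library was scaled. Between partner genes, 6 ratios were compared by exact permutation, 2-sided, over 4 treated and 4 PBS libraries. Libraries were exchanged freely, so both treatments counted as 1 group and the control sets were not kept apart as a block. The exact p-values therefore take no account of differences between the control sets. The ratio of Hsp90ab1 to Hsp90aa1 was 14.0 and 15.6 in the glucose libraries, 14.8 and 14.6 in the glucose with lipid libraries, 12.6 and 12.0 in PBS H and I, and 12.7 and 13.3 in PBS J and K. The treated libraries, at 14.8 ± 0.678, did not overlap with the PBS libraries, at 12.6 ± 0.522 (SD, n = 4 each). The exact p was 0.0286, the smallest that 4 against 4 can give, and 0.0857 after Benjamini-Hochberg adjustment over the 6 ratios, so it did not pass.

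The ratio of Hspa8 to its J-protein partner Dnajb1 was 2.37 and 2.58 in the glucose libraries, 2.17 and 1.83 in the glucose with lipid libraries, 2.83 and 2.59 in PBS H and I, and 4.03 and 3.04 in PBS J and K. It averaged 2.24 ± 0.319 in the treated and 3.12 ± 0.630 in the PBS libraries (SD, n = 4 each), without overlap although glucose replicate 2 and PBS I nearly met. The exact p was again 0.0286, and 0.0857 when adjusted. Hspa8 over Hsph1 had an exact p of 0.0857 (adjusted 0.171). The ratios of Hspd1 to Hspe1, Hsp90ab1 to Stip1 and Hspa8 to Hspa1b overlapped between treated and PBS libraries, with exact p-values from 0.343 to 0.543.

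**Figure D5:**
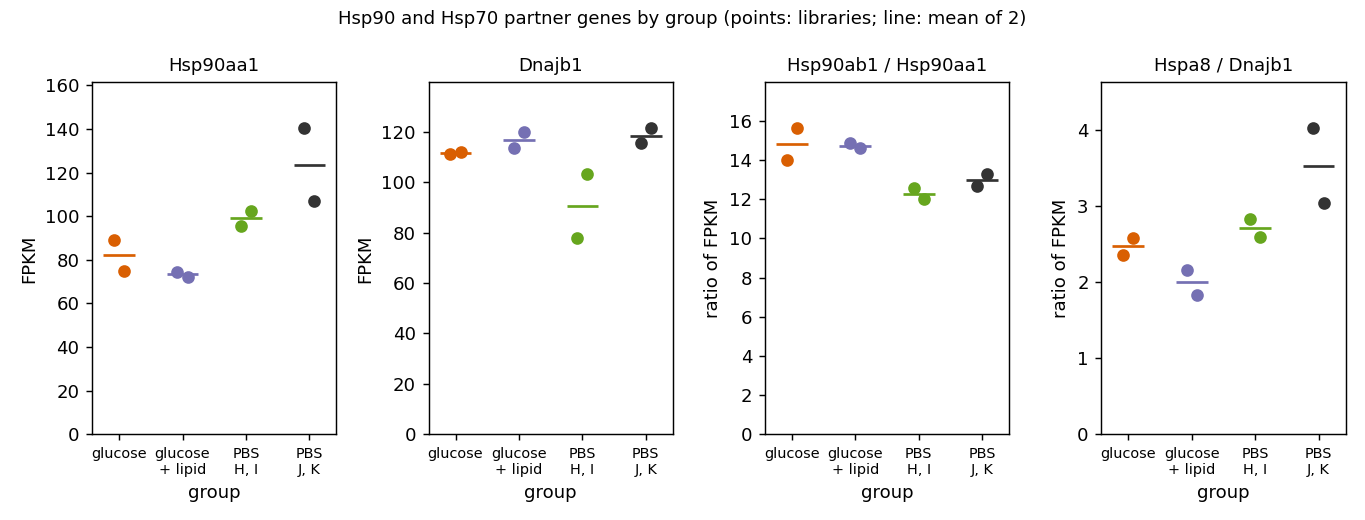
FPKM of Hsp90aa1 and Dnajb1, and the ratios of Hsp90ab1 to Hsp90aa1 and of Hspa8 to Dnajb1, by group; points are libraries and lines the mean of 2. Hsp90ab1 over Hsp90aa1 lies at 14.0 to 15.6 in the treated and 12.0 to 13.3 in the PBS libraries.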

How the data were processed

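RNA from about 10000 sorted LSK cells per extract was turned into cDNA with SMART-Seq HT and into libraries with Nextera XT, per the labels. The submitters' processing notes name TopHat2 2.0.13, Bowtie2 2.2.3, SAMtools 1.0, Cuffnorm 2.2.1 and the mm10 build; which annotation and library scaling went into Cuffnorm was not given in the sources used here. The deposited values, 1 per gene symbol and library, were taken as FPKM made by the authors, from their range and from Cuffnorm's naming, since no header states the unit. Fragment counts were not used here, so only relative depth is given and no counting interval was computed.

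Values were transformed to log2(FPKM + 1), a scale that understates differences of low genes, and a gene was tested if 2 or more libraries reached 1 FPKM (11931 genes). A single limma 3.58.1 fit (R 4.3.3) of group means with a mean-variance trend covered all 8 libraries, with 4 residual and 3.73 prior degrees of freedom. The comparison of all treated with all PBS libraries had a fit of its own to the same 8 libraries, with terms for treatment and control set. P-values (2-sided) had Benjamini-Hochberg adjustment over all genes tested of each comparison. PBS J and K served as controls of glucose, and PBS H and I as those of glucose with lipid. Further comparisons were the difference of those effects, PBS H and I relative to PBS J and K, and all treated against all PBS with the control set as a block. Scripts were tested on simulated data first. Python 3.11.15, pandas 2.3.3, scipy 1.17.1 and matplotlib 3.10.9 were used for ratios, promoters and plots. Gene positions came from RefSeq and promoters from RefSeq on GRCm38.p6. Coding sequences and pseudogene names came from GENCODE vM21 on GRCm38.

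A planned comparison of protein sequences was not run. All 37 chaperones could be named. Of each other chaperone list, up to 4 genes with the smallest unadjusted p were eligible, and those described in the text are examples from these. That p was the smallest of the glucose, glucose with lipid and PBS against PBS comparisons. The members, lists and tests were chosen with earlier results of these data known. Alternatives covered the pseudocount, the filter, scaling, the trend, the libraries in the fit, the controls, a replicate block and leaving out each library. Library H of glucose with lipid was kept although it held neutrophil transcripts. No library was dropped or imputed in the values reported unless stated.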

Additional observations from a re-analysis of the deposited data

Results flagged for a closer look

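In 4 of the 36 chaperones examined, the highest of the 4 PBS libraries stood far enough from the others that its gap, as a share of the group's range, exceeded the 95% limit of Dixon's test for 4 values. All were in PBS J. Hspa9, the mitochondrial Hsp70, reached 293 FPKM there, Dnajc2, the ribosomal J protein, 70.1 FPKM, St13, the Hsp70 partner Hip, 159.8 FPKM, and the CCT subunit gene Cct4 362 FPKM. Chance flags about 1 group in 20 by this test, and the 4 values come from the same library. The rule was applied to the chaperones only, so its share over all genes tested is not known. PBS J was the highest of the 8 libraries for 21.4% of all genes tested.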

How the results depend on the processing

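No chaperone passed the adjusted threshold under any alternative; the smallest adjusted p reached was 0.0819 for glucose, 0.0907 for glucose with lipid, 0.165 for the difference of effects, 0.0922 for PBS against PBS and 0.127 for all treated against all PBS. No median changed sign. The replicate block for glucose with lipid left the chaperone median at -0.10 with 0 called and gave 9 genes higher and 2 lower over all genes. Deviations of same-numbered libraries from their group means had a correlation of 0.066. With 2 libraries in a group these deviations are equal and opposite, so the value cannot decide whether the libraries were paired. The values reported treat them as unpaired.

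The chaperone median for glucose was -0.090 with crossed controls and -0.21 against all 4 PBS libraries. For glucose with lipid it was -0.49 with crossed controls, -0.32 against all 4 PBS libraries and -0.25 with scaling to genes other than small RNA, which also moved the median of all genes by -0.13 there and by -0.16 in the difference of effects. The median of the difference was 0.085 with that scaling and 0.16 with quantile scaling, and that of PBS against PBS was -0.19 with quantile scaling. With 1 library left out in turn, medians ran from -0.55 to -0.23 for glucose, -0.19 to -0.09 for glucose with lipid, 0.13 to 0.44 for the difference, -0.53 to -0.17 for PBS against PBS and -0.33 to -0.18 for all treated, with 0 chaperones called throughout.

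Counts of genes called over all genes were small and moved with the settings. Higher with glucose were 11 genes as reported, 18 with a pseudocount of 0.1, 18 with a filter on a mean of 5 FPKM, 20 with scaling without small RNA, 17 with quantile scaling and 7 without the trend; lower were 1, 2 with that scaling, and 3 both in a fit of only its own libraries and against all 4 PBS. For glucose with lipid, 7 were higher, 1 without a filter, 3 in its own libraries, and 27 both with crossed controls and against all 4 PBS; 2 were lower, 4 with a pseudocount of 5, 6 with scaling without small RNA, and 1 both in its own libraries and with crossed controls. For the difference, 1 was lower, 3 with that scaling and 2 with quantile scaling. For PBS against PBS, 5 were higher, 1 without a filter, 2 without the trend and 13 in its own libraries; 1 was lower, 2 with a pseudocount of 0.1, with the mean filter and without the trend, and 4 in its own libraries. For all treated, 32 were higher, 16 without a filter, 21 with scaling without small RNA and 19 without the trend; 0 were lower, and 1 without a filter or without the trend. With 1 library left out, genes higher ran from 7 to 30 for glucose, 1 to 248 for glucose with lipid, 0 to 120 for the difference, 1 to 12 for PBS against PBS and 12 to 32 for all treated, and genes lower from 0 to 5, 1 to 17, 1 to 18, 1 to 3 and 0 to 3 in the same order of comparisons. The counts of 248 and 120 came without glucose with lipid replicate 2, which leaves replicate 1, the library with neutrophil transcripts, alone on that side and assumed to vary like the other groups. The cause of these movements was not tested. The deposited values carry no counts, so the precision of genes near 1 FPKM, such as Hspa1a, is unknown.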
